A study of Mus musculus with 9 samples.

Results

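A set of 9 genes of central nervous system myelin was followed through 9 bulk RNA libraries of mouse tumour tissue: Mbp, Mog, Mag, Mobp, Cnp, Opalin, Cldn11, Mal and Ermn. They were chosen by symbol from a written list, with earlier results of these data known. All 9 were found, and the deposited table holds 17482 genes in all. The tissue is recorded as MB and was taken at postnatal day 8 or 9. SG tumours (n = 3 libraries) carried the genotype fSMO-M2;hGFAPcre, in which a Cre recombinase under an hGFAP promoter switches on SMO-M2, an activated form of the Hedgehog signal transducer Smoothened. YSGr (n = 3) and YSGnr (n = 3) tumours both carried fYap1;fSMO-M2;hGFAPcre, so SMO-M2 and the Cre driver were common to every group and the floxed Yap1 allele, which encodes a Hippo pathway coactivator, was added in these groups. The labels mark YSGr as rescued and YSGnr as non-rescued without saying what was rescued. They give neither the sex of the animals nor whether each library came from its own animal. The p-values therefore describe how these libraries vary, which may be technical.

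Myelin is the multilayered membrane that oligodendrocytes wrap around axons. Progenitors leave the cell cycle, pass through a newly formed stage and then switch on the structural genes of the sheath, largely under the transcription factors SOX10, OLIG2 and MYRF. In the cerebellum and hindbrain of the mouse this takes place in the first postnatal weeks. In bulk tissue a smaller number of oligodendrocytes and less RNA in each of them cannot be told apart.

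The sequence before the start site was examined because the genes moved together. RefSeq promoters on GRCm38.p6 matched 8 of the 9 genes, and Mbp was the gene with no match. In the 250 bases before the start site, on both strands, the letters ACAAAG, a core word recognised by SOX factors, were present in 4 of the 8 genes, against 16.5% of 27025 promoters of the same length. The letters CTGGCAC, one spelling of the MYRF site, were present in 2 of 8, against 4.16%. The TEAD word CATTCC was in 2 of 8, against 12.6%, and the E-box CAGCTG and the word TATAAA were in none of the 8, against 12.7% and 13%. No match overlapped another, a match describes letters and not a bound site, and a word that was not found says nothing about a factor. The 4 stretches that hold the SOX word are shown, 5′ to 3′ along the gene, with every match to any of the 5 words in capitals (CTTTGT and GGAATG are the SOX and TEAD words read on the other strand). They are Mobp at chr9:120149492-120149706 on the plus strand, Mag at chr7:30914923-30915172 on the minus strand, Cnp at chr11:100574689-100574903 on the plus strand and Opalin at chr19:41077114-41077363 on the minus strand. For Mobp and Cnp the last 35 bases lie in annotated exon and are left out.
Mobp: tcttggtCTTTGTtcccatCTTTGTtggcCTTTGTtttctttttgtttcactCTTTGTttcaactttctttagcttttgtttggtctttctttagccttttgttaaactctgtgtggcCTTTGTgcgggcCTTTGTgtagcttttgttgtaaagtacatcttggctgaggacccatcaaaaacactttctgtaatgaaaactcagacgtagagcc
Mag: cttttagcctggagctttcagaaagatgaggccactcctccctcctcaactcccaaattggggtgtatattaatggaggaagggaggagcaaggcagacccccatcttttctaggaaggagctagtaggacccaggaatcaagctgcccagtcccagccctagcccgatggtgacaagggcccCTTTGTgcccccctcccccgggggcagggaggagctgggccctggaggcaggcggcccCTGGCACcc
Cnp: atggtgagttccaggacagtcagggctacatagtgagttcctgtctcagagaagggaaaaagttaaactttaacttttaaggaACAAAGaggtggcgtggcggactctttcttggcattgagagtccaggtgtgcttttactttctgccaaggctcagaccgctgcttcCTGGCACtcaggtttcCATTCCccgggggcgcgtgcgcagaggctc
Opalin: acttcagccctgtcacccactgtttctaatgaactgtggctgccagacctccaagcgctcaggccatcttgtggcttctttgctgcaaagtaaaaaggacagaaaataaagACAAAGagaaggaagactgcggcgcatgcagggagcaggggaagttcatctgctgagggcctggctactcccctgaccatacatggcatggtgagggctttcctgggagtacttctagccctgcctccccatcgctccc
The Mobp stretch holds the SOX word 6 times, all on the other strand, between 243 and 115 bases before the start. Mag and Cnp each hold 1 SOX and 1 MYRF word, and Cnp a TEAD word as well, which Mal also holds. Opalin holds 1 SOX word, and Mog, Cldn11 and Ermn hold none of the 5.

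The libraries differed in depth and in make-up. Reads calculated back from the deposited values gave YSGnr replicate 1 a total of 9.66 M, and each of the other 8 libraries one of 17.3 M to 29.2 M. Levels are in CPM under the deposited scaling, in which a single read was worth 0.255 CPM in YSGnr replicate 1 and at most 0.0553 in the others. In that library Yam1 and Lars2 held 63.4% of the summed CPM, against at most 8.14% in the others, a pair chosen after its values were seen. Its deposited levels stand 1.30 log2 units above a scaling to its summed reads, and the other libraries within 0.20 of it. The median tested gene of YSGnr replicate 1 lay -0.04 log2 units from the SG mean as deposited and -1.47 when scaled to summed reads, and the median of the 9 myelin genes lay at 1.45 and 0.03. Values from this library are therefore relative to its typical gene. Yap1, the targeted gene, stood between 5.03 and 5.11 log2 CPM in SG, at 4.44, 3.31 and 2.79 in YSGr and at 2.79, 2.57 and 1.99 in YSGnr. Xist, expressed from the inactive X chromosome, was between 9.81 and 10.81 log2 CPM in the YSGr libraries and YSGnr replicate 1 and at most -0.25 in the other 5. The Y-linked Ddx3y stood between 5.82 and 5.99 in SG and at 5.38 and 4.97 in YSGnr replicates 2 and 3. It lay at the lowest value, -3.52, in the YSGr libraries and YSGnr replicate 1. In the comparison of YSGr with SG the difference in these sex-linked transcripts and the difference in group therefore cannot be told apart. Over genes, the difference from the SG mean followed exon length in YSGr replicate 3, YSGnr replicate 2 and YSGnr replicate 3, with a Spearman rho of -0.37, -0.46 and -0.45, and its size was at most 0.15 in the other 6.

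Myelin genes were higher in YSGr tumours than in SG tumours. Of the 9 genes 8 rose (limma, adjusted p below 0.05 over 15251 tested genes), where 6.58% of all tested genes were called higher. The rise was between 2.64-fold for Cnp and 7.55-fold for Opalin, and Ermn was not called. In all 9 genes each YSGr library stood above each SG library, which was so for 19.5% of the tested genes. The median log2 fold change of the 9 genes was 2.16, and that of all tested genes was -0.02. Opalin entered the test only through the YSGr and YSGnr libraries, since all SG libraries lay below the filter at 0 log2 CPM, and without it 7 of 8 rose.

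**Figure D1:**
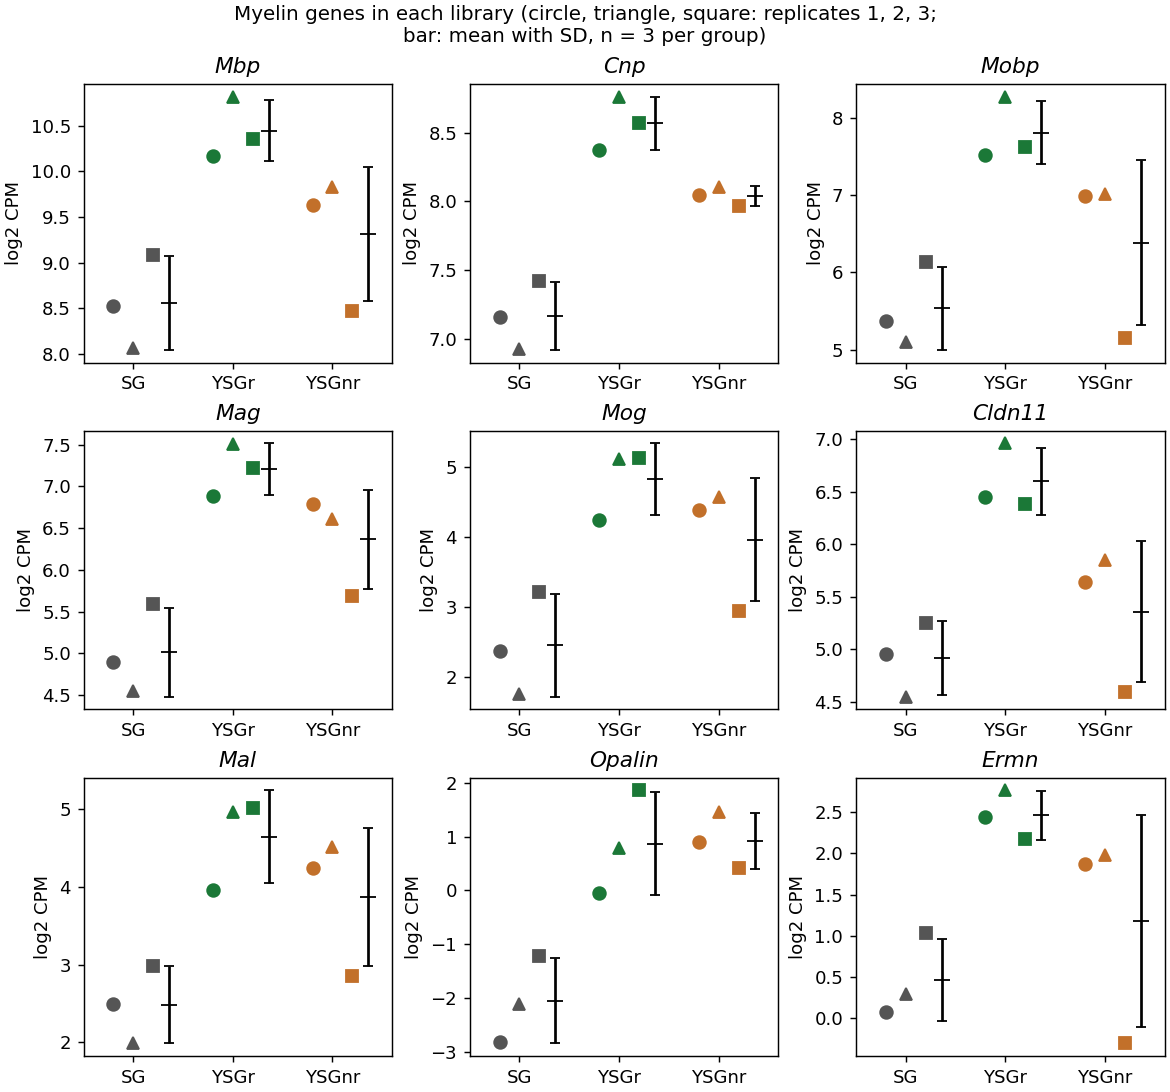
Log2 CPM of each myelin gene (vertical axes, each with its own range) in the 3 libraries of SG, YSGr and YSGnr; circles, triangles and squares are replicates 1, 2 and 3 and the bar is the mean with its SD. All YSGr points lie above all SG points, and the square of YSGnr, replicate 3, is the lowest of its group in all 9 panels.

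The cytoplasmic proteins of the sheath come first. Mbp encodes myelin basic protein, which holds the inner faces of the membrane together (chromosome 18, 82475146 to 82585637, GRCm38). It stood at 8.53, 8.06 and 9.09 log2 CPM in SG, at 10.17, 10.82 and 10.35 in YSGr and at 9.63, 9.83 and 8.47 in YSGnr. The YSGr libraries were above all the others, and YSGnr replicate 3 lay within the SG range. Mbp was 3.70-fold higher in YSGr than in SG (log2 fold change 1.89, SE 0.39, limma adjusted p = 0.0191). In YSGnr its log2 fold change of 0.75 was not called (95% interval -0.12 to 1.62, limma adjusted p = 0.245). Values are per gene, so the Golli transcripts of the same locus, which are also expressed outside oligodendrocytes, are included.

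Mobp, a small basic protein of compact myelin (chromosome 9, 120149707 to 120181484), stood at 5.37, 5.10 and 6.13 log2 CPM in SG, 7.52, 8.27 and 7.62 in YSGr and 6.98, 7.02 and 5.15 in YSGnr. YSGnr replicates 1 and 2 lay between the SG and YSGr libraries, and replicate 3 lay among the SG libraries. The rise in YSGr was 4.83-fold (log2 fold change 2.27, SE 0.49, limma adjusted p = 0.0217). The YSGnr value of 0.85 was not called (95% interval -0.25 to 1.95, limma adjusted p = 0.289).

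Cnp encodes the cyclic nucleotide phosphodiesterase of non-compact myelin, which keeps cytoplasmic channels open in the sheath (chromosome 11, 100574904 to 100591729). Its libraries were the tightest of the 9 genes: 7.16, 6.92 and 7.42 log2 CPM in SG, 8.37, 8.76 and 8.57 in YSGr and 8.05, 8.10 and 7.97 in YSGnr. The 3 groups did not overlap, and YSGnr replicate 3 stood with its group here. Cnp rose 2.64-fold in YSGr (log2 fold change 1.40, SE 0.17, limma adjusted p = 0.00268) and 1.83-fold in YSGnr (log2 fold change 0.87, limma adjusted p = 0.0311). Its exons overlap those of Dnajc7 on the other strand by 154 bases, those of Mobp overlap Gm38642 by 79 and those of Ermn overlap Galnt5 by 237. Gm38642 lies on the same strand as Mobp, and strand was not known for the counting, so reads from these stretches cannot be separated.

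Genes of the membrane surface and its contacts follow. Mag, an adhesion molecule of the innermost layer that faces the axon (chromosome 7, 30899176 to 30914873), stood at 4.90, 4.55 and 5.60 log2 CPM in SG, 6.89, 7.51 and 7.22 in YSGr and 6.79, 6.61 and 5.69 in YSGnr. All YSGnr libraries were above SG, replicate 3 by a small margin. Mag rose 4.56-fold in YSGr (log2 fold change 2.19, SE 0.34, limma adjusted p = 0.0068), and its value of 1.35 in YSGnr was not called (95% interval 0.59 to 2.11, limma adjusted p = 0.0609).

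Mog, an immunoglobulin-type protein of the outermost layer (chromosome 17, 37010743 to 37023398), stood at 2.37, 1.76 and 3.22 log2 CPM in SG, 4.24, 5.11 and 5.12 in YSGr and 4.38, 4.56 and 2.94 in YSGnr. Here YSGnr replicates 1 and 2 were above the lowest YSGr library, and replicate 3 lay within the SG range. Mog rose 5.18-fold in YSGr (log2 fold change 2.37, SE 0.49, limma adjusted p = 0.0193), and its YSGnr value of 1.51 was not called (95% interval 0.41 to 2.61, limma adjusted p = 0.105).

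Cldn11, the claudin of the tight junctions between myelin layers (chromosome 3, 31149920 to 31164324), stood at 4.95, 4.55 and 5.25 log2 CPM in SG, 6.45, 6.96 and 6.38 in YSGr and 5.64, 5.85 and 4.59 in YSGnr. It separated YSGr from both other groups, while YSGnr replicate 3 was nearly as low as the lowest SG library. Cldn11 rose 3.20-fold in YSGr (log2 fold change 1.68, SE 0.33, limma adjusted p = 0.0165) and had the smallest YSGnr value of the 9, 0.44, which was not called (95% interval -0.29 to 1.18, limma adjusted p = 0.403).

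Mal, a proteolipid that sorts membrane to the sheath (chromosome 2, 127633226 to 127656695), stood at 2.49, 1.99 and 2.98 log2 CPM in SG, 3.96, 4.96 and 5.02 in YSGr and 4.25, 4.52 and 2.85 in YSGnr. YSGr replicate 1 was lower than YSGnr replicates 1 and 2, so the YSGr and YSGnr groups overlapped. Mal rose 4.47-fold in YSGr (log2 fold change 2.16, SE 0.47, limma adjusted p = 0.0218), and its YSGnr value of 1.39 was not called (limma adjusted p = 0.113).

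Opalin and Ermn, which belong to the late, mature oligodendrocyte, were measured on few reads. Opalin, a membrane glycoprotein specific to the central nervous system (chromosome 19, 41061710 to 41077113), stood at -2.81, -2.10 and -1.22 log2 CPM in SG, -0.04, 0.79 and 1.86 in YSGr and 0.91, 1.45 and 0.41 in YSGnr. These levels rest on 16 reads over the SG libraries, of which 1 was in replicate 1, on 151 reads over YSGr and on 97 over YSGnr. Both Yap1-floxed groups were above SG in every library and overlapped each other. Opalin rose 7.55-fold in YSGr (log2 fold change 2.92, SE 0.58, limma adjusted p = 0.0176) and 7.83-fold in YSGnr (log2 fold change 2.97, limma adjusted p = 0.0331). These folds carry the added count and understate the difference, and the ratio of reads to the library sizes of the deposited scaling was 9.31 for YSGr (exact 95% interval 5.55 to 16.7) and 9.65 for YSGnr (5.65 to 17.6). Against the summed reads the ratios were 9.29 (5.54 to 16.7) and 7.67 (4.49 to 13.9), and all intervals cover counting error only.

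Ermn, a cytoskeletal protein of mature oligodendrocytes (chromosome 2, 58045113 to 58052864), stood at 0.07, 0.29 and 1.03 log2 CPM in SG, 2.44, 2.77 and 2.18 in YSGr and 1.87, 1.98 and -0.31 in YSGnr. YSGnr replicate 3 was below all SG libraries, the only gene of the 9 for which it was. Neither the YSGr value of 2.00 (95% interval 0.72 to 3.29, limma adjusted p = 0.0551) nor the YSGnr value of 0.72 (limma adjusted p = 0.438) was called. The YSGr value was called with the 6 libraries of the comparison alone (limma adjusted p = 0.0133).

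Calls in YSGr against SG depended on single libraries although direction did not. With each of the 9 libraries left out in turn, Mag and Cnp were called in all 9 fits, Mog and Opalin in 6, Mbp, Mobp, Cldn11 and Mal in 5 and Ermn in 3. The number of myelin genes called was 2 when SG replicate 1, SG replicate 2 or YSGr replicate 2 was left out, and 5 without YSGr replicate 1. In these fits 1.6%, 1.66%, 1.67% and 1.78% of all tested genes were called higher, against 6.58% with all libraries. Without any of the others between 7 and 9 were called, where 2.12% to 14.4% of all tested genes were called higher. The median log2 fold change of the 9 genes stayed between 1.91 and 2.41. Scaled to summed reads, 5 genes were called (Mog, Mag, Mobp, Opalin and Mal), and Cnp was not (limma, adjusted p = 0.134). Under that scaling 0.734% of all tested genes were called higher.

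The YSGnr group was split under the deposited scaling. Against SG, 2 of the 9 genes rose, Cnp and Opalin, where 1.19% of all tested genes were called higher, and Cnp is the 1 gene left when Opalin is set aside. The other 7 had values above 0 that were not called. Libraries did not overlap for 3 genes, Cnp, Mag and Opalin, against 16.9% of the tested genes. The median log2 fold change was 0.87, against -0.01 over all tested genes. YSGnr replicates 1 and 2 were above every SG library at 9 of 9 genes, with a median of 1.45 and 1.52 log2 units above the SG mean. YSGnr replicate 3 was above the SG range at 3 genes (Cnp, Mag and Opalin), within it at 5 and below it at 1, with a median of 0.36. The YSGr libraries had medians of 1.79, 2.48 and 2.09. Scaled to summed reads, YSGnr replicates 1, 2 and 3 had medians of 0.03, 1.40 and 0.13. The median tested gene of these libraries then lay at -1.47, -0.12 and -0.24. The place of replicate 1 relative to SG therefore depended on the scaling, and its typical gene moved down with the myelin genes. Xist stood at 10.81, -0.68 and -0.25 log2 CPM in YSGnr replicates 1, 2 and 3, and its relation to the myelin genes was not tested. No myelin gene was called in YSGnr when any SG library or YSGnr replicate 2 or 3 was left out. In these fits 0.0262% to 0.466% of all tested genes were called higher. There was 1 called without YSGr replicate 2 and 3 without YSGr replicate 3, where 0.492% and 6.94% of all tested genes were called higher. Leaving out YSGnr replicate 3 moved the median of the 9 genes to 1.47 and left 2 libraries in the group. Scaled to summed reads, the median was 0.28, Cldn11 turned to -0.15 and Opalin alone was called, while 9 of 669 calls over all genes were higher, against 181 of 512 as deposited.

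**Figure D2:**
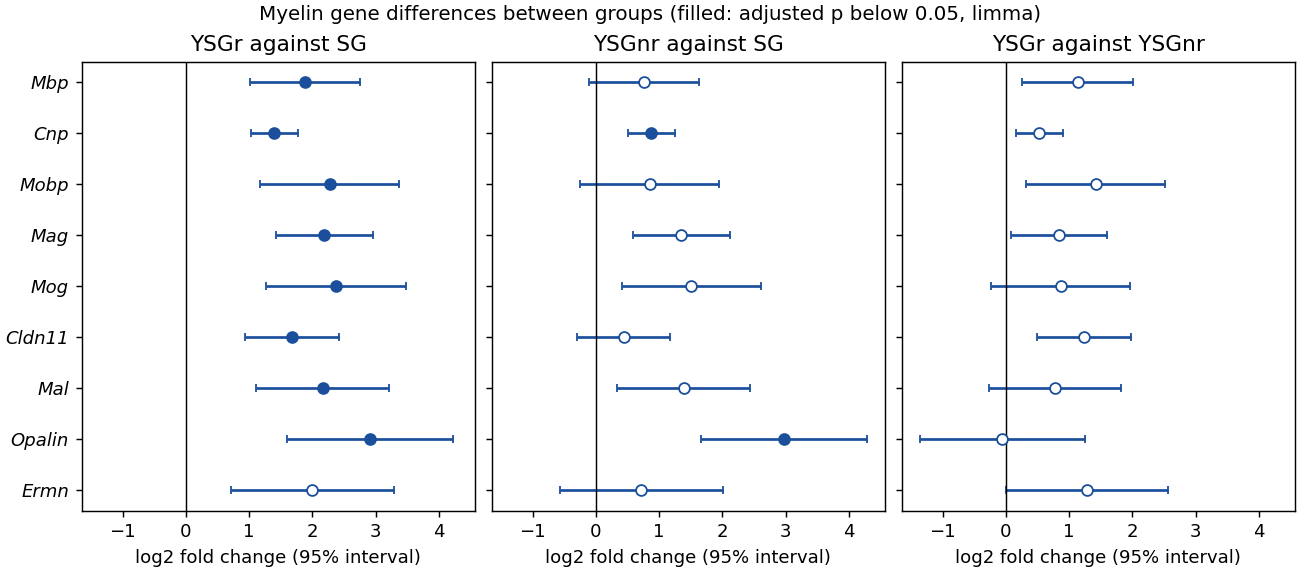
Log2 fold change with its 95% interval (horizontal axis) for each myelin gene in the 3 comparisons; filled points passed an adjusted p of 0.05. In YSGr against SG all 9 intervals lie above 0 and 8 points are filled, in YSGnr against SG 2 are filled, and in YSGr against YSGnr none is.

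Between YSGr and YSGnr no myelin gene was called (limma, 0 of 9), where 5.09% of all tested genes were called higher in YSGr. An unadjusted p below 0.05 was reached by 5 of the 9 genes. Of the 9 genes 8 had values above 0 and the median was 0.86, against 0.01 over all tested genes. For 6 genes (Mbp, Mag, Mobp, Cnp, Cldn11 and Ermn) every YSGr library was above every YSGnr library, against 15% of the tested genes. Mobp had the largest value, 1.42 log2 units (95% interval 0.32 to 2.52, limma adjusted p = 0.091), followed by Ermn at 1.28 and Cldn11 at 1.24 (limma adjusted p = 0.148 and 0.0552). Opalin was nearly level at -0.05, with a 95% interval of -1.36 to 1.26 that spans differences in both directions. There were 2 genes called without YSGr replicate 3 (Cnp and Cldn11) or without YSGnr replicate 1 (Mobp and Cldn11), and 6 with both libraries left out. Calls rose over all genes as well, to 6528, 4725 and 9867 of 15251 in these fits, with 22.2%, 16.8% and 32% called higher. Without YSGnr replicate 3 the median of the 9 genes was 0.50. Scaled to summed reads it was 1.46 and 5 genes were called (Mbp, Mag, Mobp, Cldn11 and Ermn), while 2091 of 2129 calls over all genes were higher, against 776 of 910 as deposited, and Opalin turned to 0.54. The 3 comparisons share their groups, so their values are given side by side and are not independent of each other.

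Levels of different genes were set beside each other as CPM per kilobase of exon. Mbp was highest, with 46.5 ± 16.5 for SG, 168 ± 40.4 for YSGr and 81.2 ± 34.7 for YSGnr (SD, n = 3), followed by Cnp at 39.9 ± 6.85, 105 ± 14.1 and 72.3 ± 3.46. Mbp exceeded Cnp in 7 of 9 libraries, and their levels did not differ beyond the spread in SG or YSGnr. Cldn11, Mag and Mobp came next, at 52.5 ± 12.1, 36.8 ± 7.79 and 33.5 ± 10.004 in YSGr. Their order depended on the length used: with the exon union Cldn11 exceeded Mag in 8 of 9 libraries, and with the longest coding transcript in 3 of 9. Mog (17.2 ± 5.36 in YSGr) and Mal (9.48 ± 3.40) followed in that order in all 9 libraries. Ermn (1.52 ± 0.320) and Opalin (0.687 ± 0.466) were lowest. Ermn exceeded Opalin in 8 of 9 libraries with the exon union and in 6 of 9 with the longest coding transcript. With the latter the YSGnr means were 0.747 for Ermn and 1.03 for Opalin, so their order also depended on the length used.

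**Figure D3:**
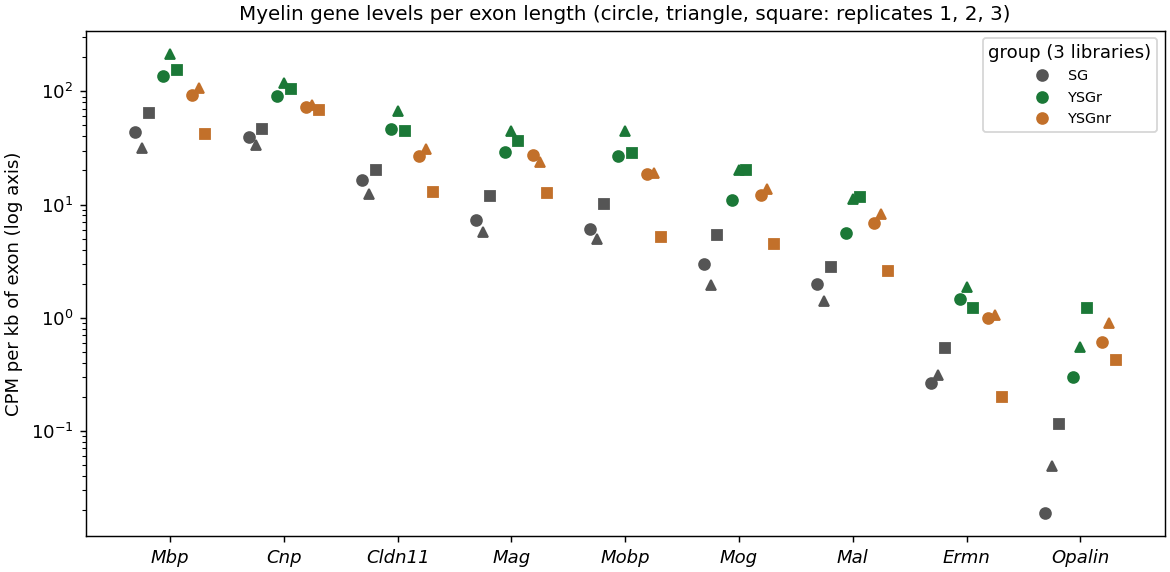
CPM per kilobase of exon (vertical log axis) of the 9 myelin genes, ordered by their mean over libraries, with 3 libraries per group as separate points. The genes span from below 0.1 for Opalin in SG to over 100 for Mbp in YSGr. With the exon union used here, the group means of the highest and lowest genes have a like order in the 3 groups.

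The rest of the oligodendrocyte lineage did not move as one block. Of 30 tested genes of a further list of myelin and mature oligodendrocyte genes 12 rose in YSGr against SG, none fell and 18 were not called. Their median log2 fold change was 0.90. An unadjusted p below 0.05 (limma) was reached by 19 of the 30. Of these Car2, Anln and Gjc3 had values of -0.75, -0.64 and -0.50, and the others had values above 0. Of all tested genes 6.58% were called higher in YSGr against SG, 1.19% in YSGnr against SG and 5.09% in YSGr against YSGnr. Tmem125 rose by 2.37 log2 units (limma, adjusted p = 0.0153) and the fatty acid hydroxylase gene Fa2h, which serves myelin lipids, by 2.21 (limma, adjusted p = 0.00801). Gsn, an actin-severing protein gene, rose by 1.74 (limma, adjusted p = 0.00826). In YSGnr 2 of the 30 rose, Gsn by 1.48 and Pllp, a myelin proteolipid gene, by 1.01 (limma, adjusted p = 0.0324 and 0.0356). Between YSGr and YSGnr 4 were higher in YSGr: Fa2h by 1.70, the protease gene Adamts4 by 1.66, Nipal4 by 1.58 and the tetraspanin gene Tspan2 by 1.53 log2 units. Scaled to summed reads, the calls were 2, 0 and 9 in these comparisons, where 176, 669 and 2129 of all tested genes were called. The 12 calls became 4, 3 and 6 when SG replicate 1, 2 or 3 was left out, and 7 and 3 when YSGr replicate 1 or 2 was. Over all tested genes the 1608 calls became 328, 345, 417, 400 and 359 in these fits. Between YSGr and YSGnr there was no call on this list with the 6 libraries alone, where 0 of 15251 tested genes were called. There was also no call when any of these 5 libraries, or YSGnr replicate 2 or 3, was left out. Those fits called between 1 and 10 of all tested genes. Without YSGr replicate 3 or YSGnr replicate 1 the list had 12 and 9 calls, where 6528 and 4725 of all tested genes were called. The 2 calls in YSGnr became 0 when any SG library, YSGr replicate 2, or YSGnr replicate 2 or 3 was left out. They became 1 when YSGr replicate 1 was, 8 when YSGr replicate 3 was and 9 when YSGnr replicate 1 was. Over all tested genes the 512 calls became 19 to 225 in the fits with 0, and 236, 2634 and 3332 in those with 1, 8 and 9.

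Earlier stages of the lineage moved less, and in part the other way. Of 9 tested genes of the newly formed oligodendrocyte 2 rose in YSGr and 7 were not called, where 6.58% of all tested genes were called higher. Those that rose were Kif19a by 1.10 and Cnksr3 by 0.89 log2 units (limma, adjusted p = 0.0238 and 0.0421). None was called in YSGnr (limma, 1 at an unadjusted p below 0.05), where Gpr17, a receptor gene of that stage, had a value of -0.59 and Itpr2 one of -0.57. Gpr17 and Cnksr3 were higher in YSGr than in YSGnr, by 1.21 and 1.02 (limma, adjusted p = 0.0278 and 0.0431). In that comparison 5.09% of all tested genes were called higher.

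Of 11 tested progenitor genes 3 fell in YSGr and 8 were not called, where 3.97% of all tested genes were called lower. They were the phosphatase gene Ptprz1, which fell by 1.08, Pcdh15 by 1.06 and the proteoglycan gene Cspg4, which marks progenitors, by 0.74 log2 units (limma, adjusted p = 0.0362, 0.0337 and 0.0388). In YSGnr, where 2.17% of all tested genes were called lower, Ptprz1, Sox6 and Cacng4 fell by 1.35, 1.09 and 0.86 (limma, adjusted p = 0.0352, 0.0432 and 0.0293). Between YSGr and YSGnr 0.879% of all tested genes were called lower in YSGr. Pdgfra, the growth factor receptor of progenitors, was among them with a log2 fold change of -1.27, and Cacng4 was higher by 0.68 (limma, adjusted p = 0.0347 and 0.0445).

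Of 10 lineage transcription factor genes none rose against SG in YSGr or YSGnr (limma). Olig1 and Olig2, both basic helix-loop-helix factors, fell in YSGr, with log2 fold changes of -1.22 and -1.22 (limma, adjusted p = 0.0303 and 0.0277). Tcf7l2 fell by 1.10 in YSGnr (limma, adjusted p = 0.0253). Of all tested genes 3.97% were called lower in YSGr and 2.17% in YSGnr. Olig2 stood between 6.49 and 6.54 log2 CPM in SG, at 4.98, 4.90 and 5.998 in YSGr and at 5.93, 6.36 and 5.72 in YSGnr, so YSGr replicate 3 was nearer to SG than the other YSGr libraries. None of the 10 was called between YSGr and YSGnr (limma, 5 at an unadjusted p below 0.05), where Myrf had a value of 1.75 and Olig1 one of -1.002 (limma, adjusted p = 0.0516 and 0.0664). Myrf, which drives the sheath genes directly, stood at 4.12, 3.27 and 4.34 log2 CPM in SG, 5.23, 5.69 and 4.82 in YSGr and 4.50, 3.23 and 2.78 in YSGnr. Every YSGr library was above every other library, and the value of 1.34 against SG was not called (limma, adjusted p = 0.0897). Sox10 had values of 0.43 in YSGr and -0.11 in YSGnr that were not called (limma, adjusted p = 0.101 and 0.647). Sox10, and the library values of Olig2 and Myrf, were chosen after their values were seen.

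**Figure D4:**
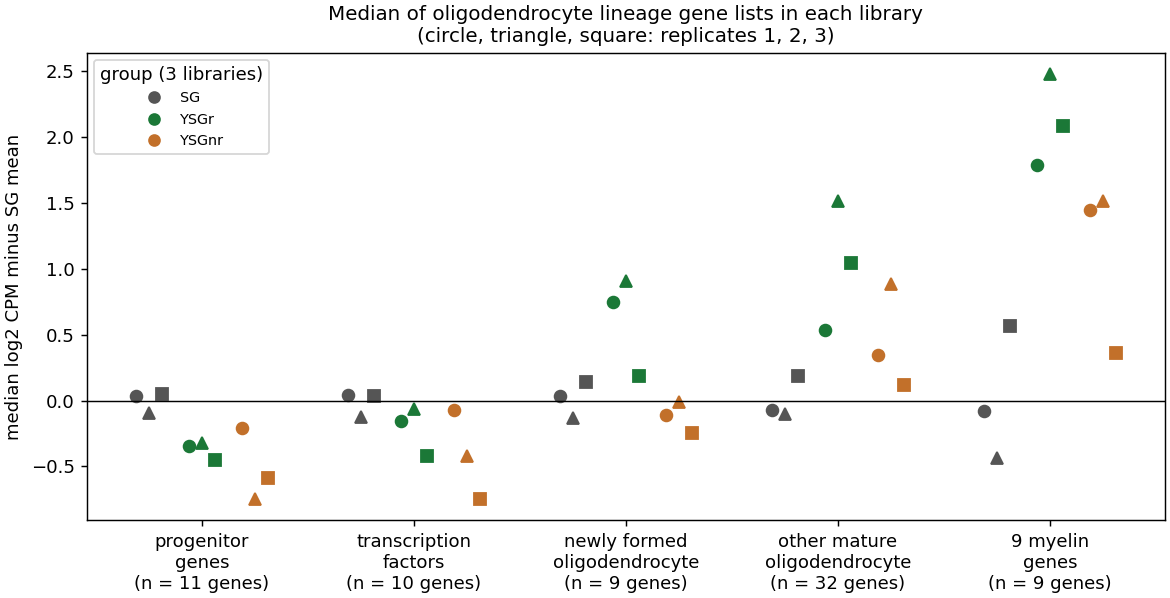
Median over each gene list of log2 CPM minus the SG mean (vertical axis), 1 point per library, for lists ordered from progenitor to myelin genes. The 9 myelin genes stand at 1.79 to 2.48 in YSGr, while the progenitor and transcription factor lists lie between -0.75 and 0.05 in all 9 libraries.

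Genes on the axon side of the sheath were examined from 2 lists. Of all tested genes 6.58% were called higher and 3.97% lower in YSGr against SG, and 5.09% higher in YSGr against YSGnr. Of 13 node and paranode genes 3 rose in YSGr: Kcna1, a potassium channel gene, by 1.74, the spectrin gene Sptbn4 by 1.72 and the adhesion gene Cadm3 by 1.27 log2 units (limma, adjusted p = 0.0254, 0.0201 and 0.00741). None was called in YSGnr (limma, 0 at an unadjusted p below 0.05), where Cadm2 had a value of -0.80 and Cntnap2 one of -0.60. Sptbn4, Nfasc, Cntnap2 and Cadm3 were higher in YSGr than in YSGnr, by between 0.91 and 1.96 log2 units. The exon length trend in YSGr replicate 3 and YSGnr replicates 2 and 3 was not removed from these values. The second list held 9 genes for neuronal receptors of myelin-associated growth inhibitors and for Rtn4, one such inhibitor. Rtn4rl1 rose by 1.24 and Lingo1 by 0.62 in YSGr, and Ngfr fell by 0.73. None was called in YSGnr (limma, 4 at an unadjusted p below 0.05), where Lrp1 stood at -1.40 and Rtn4rl2 at -0.72, and Rtn4rl1 was higher in YSGr than in YSGnr by 1.14.

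Markers of other cells moved with the myelin genes in part. Of all tested genes 6.58% were called higher in YSGr against SG, 1.19% in YSGnr against SG and 5.09% in YSGr against YSGnr. The 5 Schwann cell markers in the table summed to 6.35 to 14.8 CPM in SG, 7.16 to 8.68 in YSGr and 7.15 to 9.96 in YSGnr, and neither of the 2 tested, Prx and Egr2, was called in any comparison (limma, 0 at an unadjusted p below 0.05). Mature granule neuron markers were the other group that rose most clearly: 6 of 7 rose in YSGr and 5 in YSGnr, led by Gabrd, Cbln3, Gabra6 and Slc17a7, and all 7 were higher in YSGr than in YSGnr. Their summed level was 226 to 257 CPM in SG, 656 to 965 in YSGr and 295 to 394 in YSGnr. In YSGnr replicate 3 it was 391 CPM, close to the 394 of replicate 1. The myelin gene medians of these libraries were 0.36 and 1.45 log2 units above the SG mean. These are deposited values, which in replicates 3 and 1 stand 0.11 and 1.30 log2 units above a scaling to summed reads. The granule neuron levels drop by these amounts under that scaling, so they are close only as deposited. The myelin gene medians were then 0.13 and 0.03.

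For the lists below, 6.58% of all tested genes were called higher and 3.97% lower in YSGr against SG. These shares were 1.19% and 2.17% in YSGnr against SG, and 5.09% and 0.879% in YSGr against YSGnr. Of 8 granule progenitor and Hedgehog genes, 4 fell in YSGr (Hhip, Ccnd1, Ptch1 and Mki67). None was called in YSGnr (limma, 0 at an unadjusted p below 0.05) and none between YSGr and YSGnr (limma, 6 at an unadjusted p below 0.05). Their summed level was 2843 to 2985 CPM in SG and 2306 to 2497 in YSGnr, and in YSGr it was 2263 in replicate 3 against 1058 and 815 in replicates 1 and 2. The myelin gene median of YSGr replicate 3 lay between those of replicates 1 and 2. Of 6 Purkinje cell markers 3 rose in YSGr (Ppp1r17, Slc1a6 and Pcp2) and 2 in YSGnr (Ppp1r17 and Slc1a6), and 5 were higher in YSGr than in YSGnr. Of 9 astrocyte markers Gfap and Aldoc rose and Fgfr3 fell in YSGr, and none was called in the other comparisons (limma, 2 in YSGnr against SG and 4 in YSGr against YSGnr at an unadjusted p below 0.05). None of 6 microglia markers was called in any comparison (limma, 1 in each at an unadjusted p below 0.05). Of 5 endothelial markers none was called in YSGr against SG (limma, 0 at an unadjusted p below 0.05), and Flt1, Kdr and Cdh5 fell in YSGnr and were higher in YSGr than in YSGnr. Of 6 hindbrain position and brainstem neuron genes Hoxb3, Hoxb2 and Slc5a7 fell in YSGr, none was called in YSGnr (limma, 3 at an unadjusted p below 0.05), and Slc5a7 was lower in YSGr than in YSGnr. The genes of this list did not share a pattern over libraries. Hoxb3 stood at 0.08, 0.28 and 1.46 log2 CPM in SG, at 1.04 in YSGnr replicate 3 and at -3.52, the floor of the values, in the other 5 libraries. Isl1 stood between -1.46 and -1.04 in SG, at the floor in YSGr replicates 1 and 2, at 1.76 in YSGr replicate 3 and between 1.59 and 3.33 in YSGnr. Slc6a5 stood between 2.87 and 3.45 in SG, at 4.25, 4.55 and 2.94 in YSGr and between 1.80 and 3.26 in YSGnr. The part of these cells, and of the place from which tissue was taken, in the myelin gene differences was not tested.

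The genes whose profile over the 9 libraries lay nearest to the mean profile of the 9 myelin genes were found by the root mean square difference of centred log2 CPM. Near to it outside the 9 were Slc45a3 at 0.30 log2 units, Tmem125 at 0.34, Tuba8, Lgi3 and Gsn at 0.35, Lynx1 at 0.37, Faim2 and Casq2 at 0.38 and the Purkinje cell transporter gene Slc1a6 at 0.40. The median over 15251 genes was 1.04. Among the myelin genes themselves, which make up the mean, Mag was nearest at 0.13 and Opalin farthest at 0.86, followed by Cnp at 0.45. Opalin departed most in SG replicate 1, where it rests on 1 read and lay -1.46 log2 units from the mean profile, and in YSGnr replicate 3, at 1.24. Cnp departed most in YSGnr replicate 3, at 0.78.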

How the data were processed

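The authors deposited 1 table of log2 CPM for 17482 genes in 9 libraries. Per the submitters' processing notes, Trimmomatic, RSEM, Bowtie2, Picard and edgeR were used with the build mm10. RNA was extracted from tumour tissue and sequenced at BGI on the DNBseq platform, per the labels' protocols. Not given in the sources used here: versions, annotation and strand. All libraries' values share a lowest value of -3.52, from an added count that averages 2 reads over libraries, so folds of low genes are understated.

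Reads were calculated back from the step that 1 read makes, and between 40.9% and 62.6% of low values were whole to within 0.02 reads, so no count test was used. The test was limma 3.58.1, run under R 4.3.3 (group means over all 9 libraries, mean-variance trend, two-sided) on 15251 genes above 0 log2 CPM in at least 3 libraries, with Benjamini-Hochberg adjustment over these genes. The steps were tested on simulated data. GENCODE M21 (GRCm38, which mm10 is) supplied gene lengths, GC content and positions, and 95.6% of symbols matched 1 gene.

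The 9 genes and the lists were chosen with earlier results of these data known. The naming rule took the 9 genes, Yap1, up to 4 called genes of each list with the largest change (up to 2 as values where none was called), and the 10 genes nearest in profile, predicted genes left out. Some genes that this rule takes are not reported here. Alternatives were filters, an added count of 1, 2 other scalings, scaling to summed reads (chosen after seeing the data), fewer libraries, no trend, array weights, a length and GC trend removed, and a block on replicate number.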

Additional observations from a re-analysis of the deposited data

How the results depend on the processing

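The median log2 fold change of the 9 myelin genes moved by less than the spread between libraries under every alternative run, except in YSGr against YSGnr with scaling to summed reads, an alternative chosen after seeing the data, where it was 1.46. The spread was taken from the SD over libraries of the mean of the 9 genes, 0.49 in SG, 0.34 in YSGr and 0.74 in YSGnr. It is wide in YSGnr, so the medians given above for YSGnr against SG with summed reads and without YSGnr replicate 3 count as unmoved. In YSGr against SG the number of myelin genes called was 7 to 9 under the alternatives that left out no library of that comparison, other than scaling to summed reads, with Opalin untested at the stricter filter. Over all tested genes 5% to 26.9% were called higher under these alternatives. Leaving out 1 library gave 2 to 9 called genes in YSGr against SG, 0 to 3 in YSGnr against SG and 0 to 2 in YSGr against YSGnr. The same for the further mature oligodendrocyte list gave 3 to 16, 0 to 9 and 0 to 12. For all 15251 tested genes it gave 328 to 4257, 19 to 3332 and 1 to 6528.

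In YSGnr against SG 1 myelin gene was called with the stricter filter, with log2(CPM + 1), and with the replicate block, alone or with the length and GC trend removed. These settings called 0.695% to 1.4% of all tested genes higher. In YSGr against YSGnr 1 myelin gene was called with that trend removed, with or without the block. The shares of all tested genes called higher were 5.97% with the block and 7.05% without. There were 5 myelin genes called with array weights and 6 without YSGr replicate 3 and YSGnr replicate 1. In these 2 fits 9410 and 9867 of all 15251 tested genes were called. The further list had 20, 14 and 15 called genes with array weights in the 3 comparisons in the order above, of which 17, 11 and 10 were higher. Of all 15251 tested genes 8582, 7155 and 9410 were called, of which 4110, 3570 and 4688 were higher. Without YSGr replicate 3 and YSGnr replicate 1 it had 15 called in YSGnr against SG and 17 in YSGr against YSGnr. Of these 11 and 11 were higher. Of all tested genes 8074 and 9867 were called, of which 4061 and 4873 were higher. The further list had 1 call in YSGnr against SG with block and trend removal, where 374 of 14603 tested genes were called. In YSGr against YSGnr it had 1 with median scaling and 0 with the 6 libraries alone, where 316 and 0 of all tested genes were called. Opalin turned direction in YSGr against YSGnr with the length and GC trend removed, with or without the block (0.12), and lay between -0.55 and 0.40 with 1 library left out. Scaled to summed reads, the 3 comparisons had 5, 1 and 5 called myelin genes, and 2, 0 and 9 of the further list. Of all tested genes 176, 669 and 2129 were called. Cldn11 turned to -0.15 in YSGnr against SG and Opalin to 0.54 in YSGr against YSGnr. The cause was not tested.

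The replicate numbers did not pair the libraries: same-numbered libraries of different groups had correlations of deviations between -0.23 and 0.24, and a library correlated best with its own number in 6 of 18 cases. With the replicate block Cnp lost its call in YSGnr against SG (limma, adjusted p = 0.0518), and 8 and 0 myelin genes were called in the other comparisons. In those comparisons 5% and 4.64% of all tested genes were called higher. Array weights were computed gene by gene, chosen after the default method failed to converge. Depth limits Opalin and Ermn most, with 1 Opalin read in SG replicate 1 and 14 and 15 Ermn reads in YSGnr replicates 1 and 3.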
